A study of Arabidopsis thaliana with 83 samples.

Results

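The 37 probe sets described here had a signal of 300 or more in at least 1 Arabidopsis thaliana accession and of 20 or less in at least 1 other, taken as the mean of the 3 arrays of each accession at 0 h. They were 37 of 22746 probe sets once array controls were set aside. In all 42 probe sets met both levels, and 5 belonged to genes that were left out of the choice by name. Of the 37 members, 18 are paired with 1 gene, 3 with several genes and 16 with none in the annotation used here, so the last 19 are called by their probe set. The levels at 0 h chose the members and are given as a description. Differences were tested only in the arrays taken at 30 min, 1 h and 3 h, here called the later arrays.

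The study measured transcripts in whole seedlings with Affymetrix ATH1 arrays, 83 in all, to follow the response of natural accessions to auxin. Arrays are labelled 0 h, 30 min, 1 h and 3 h in Col-0, the common laboratory line, and in C24, Sha, Bay-0, Fei-0, Bur-0 and Bl-1, with 3 arrays in each of the 28 groups except Fei-0 at 3 h, which has 2. Seeds of every group were kept cold and dark for 5 days and grown in liquid culture for 7 days at 22 °C under constant white light, with a yellow filter in the last 24 h. No group carries a transgene or mutant allele by its labels. For the auxin dose and for mock arrays the labels give nothing. Bay-0 came from the parent stock of the Bay-0 x Shahdara population and carries an extra label for recombinant inbred material, while Sha is also spelled Shakdara. Nothing in the labels says that replicates were separate cultures, so p-values measure the spread between these arrays, which may be technical. The numbers in the titles follow accession and time, so processing order and accession cannot be told apart.

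An accession is an inbred natural line, and accessions of this species differ by deletions, insertions and promoter changes as well as by single bases. Some genes are therefore transcribed in one line and silent in another, and such genes are often found among those of defence and specialised metabolism. The array carries probes designed on the Col-0 sequence. A low signal in another accession can stand for little transcript or for a sequence that the probes do not match, and these cannot be told apart here. Col-0 itself was at 20 or less for 7 of the 37 members and at 300 or more for 9. In whole seedlings, fewer cells of a type and less RNA per cell cannot be told apart either.

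Signals are the authors' linear values, scaled so that the trimmed mean of every array is 100. Array medians ran from 38.0 to 43.3, and replicate arrays correlated at 0.964 to 0.991 across probe sets. A level of 20 lay at the 37.1 percentile of all accession means at 0 h and 300 at the 90.1 percentile. Of 11 shoot markers listed, 2 were measured, RCA and LHCB4.2. Their summed signal at 0 h was 2893 to 3434 in Bay-0 and 2668 to 3362 in Sha, against 5171 to 8534 in the other accessions, and its part in the results was not tested. Of 12 root markers 2 were measured, EXPA7 and EXPA18, with sums at 0 h from 30.1 in a Bl-1 array to 95.5 in a Bay-0 array. None of 9 seed storage and 8 pollen or flower markers was matched. The ratio of the 3′ to the 5′ actin control probe sets had medians from 3.29 in C24 to 73.6 in Col-0. For the GAPDH control the medians ran from 1.53 in Sha to 2.23 in Fei-0, with 2.00 in Col-0. The part of these ratios in the results was not tested.

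One array stood apart for members. Sha 3 h replicate 1 had a signal of 529 for AT2G25510, where the other Sha arrays had 1.95 to 29.3, and of 209 for AT2G15130, where they had 0.285 to 4.26. These were 11.2% and 8.48% of the Bay-0 means at 3 h. Results on these 2 members are given with and without that array. Each of the 62 later arrays was nearest, over the 37 members, to the 0 h profile of its own accession. The members were chosen because these profiles differ, so this was largely built in. It held for Sha 3 h replicate 1 too and is no check on that array. The array Bl-1 0 h replicate 3 had 217 for 253767_at and 105 for 249082_at, where the other 2 Bl-1 arrays had 10.2 and 7.57, and 0.638 and 1.23.

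The first comparison asked whether the accession that was highest at 0 h stayed above the one that was lowest at 0 h in arrays the choice had not used. The filter on low signal used the mean over all 83 arrays, so the members, chosen as high somewhere, could pass through those accessions. All 37 passed it, which is no result. All 37 were called higher in the later arrays by limma, against 14.0% of the 15922 probe sets tested. A call needed an adjusted p under 0.05 and at least 2-fold. The median difference over the members was 4.73 on the log2 scale with 16 added to each signal, with a range of 2.20 to 7.06, against a median of 0.40 over all probe sets tested. At 0 h the medians were 4.62 for the members and 0.64 for all. In 35 members every later array of the high accession lay above every later array of the low one, which held for 32.1% of all probe sets tested. The exceptions were 246340_s_at and 263539_at, both described below with their fall in Bay-0. The same 2 accessions were still at 300 or more and at 20 or less for 26 members at 30 min, 25 at 1 h and 21 at 3 h.

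**Figure D1:**
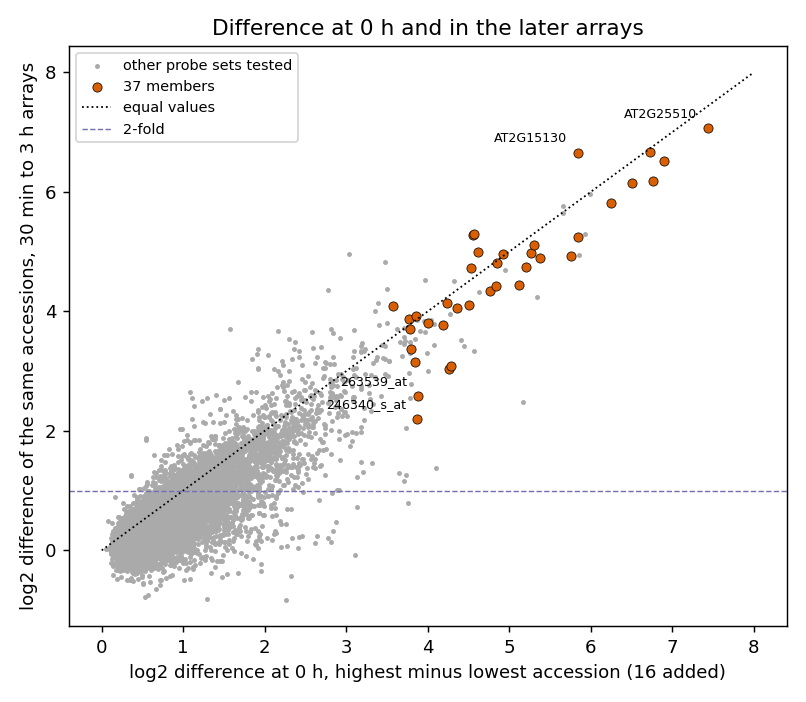
Each point is a probe set: the horizontal axis is the log2 difference between its highest and lowest accession at 0 h, and the vertical axis the log2 difference of the same accessions in the later arrays, with 16 added to each signal. The 37 members lie between 2.20 and 7.06 on the vertical axis, above the dashed line of 2-fold. Members were chosen by the values on the horizontal axis.

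The widest range belonged to AT2G25510, a gene of unknown function. At 0 h it had signals of 4962, 5356 and 4910 in Bay-0, against 1.95, 9.15 and 29.3 in Sha. The later Bay-0 arrays had 4165 to 6172 with a median of 4579, against 3.37 to 529 with a median of 10.3 in Sha, and limma gave a log2 difference of 7.06 ± 0.27 (SE, adjusted p = 2.06e-30). Without Sha 3 h replicate 1 the difference was 7.56 ± 0.13. The gene was not simply on or off across the lines: C24, Col-0 and Fei-0 had means over 300 at 0 h, Bur-0 had 244, 191 and 164, and Bl-1 had 19.2, 14.3 and 10.1. Bl-1 kept 5.71 to 16.9 in its later arrays.

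AT4G29200, AT2G15560 and AT1G50290 are given by locus. At 0 h AT4G29200 had 1042, 1115 and 1054 in Bl-1, against 4.63, 0.52 and 3.61 in Fei-0, and in limma it was higher in the later Bl-1 arrays by 5.25 ± 0.10 (log2, SE, adjusted p = 3.56e-45). Bay-0 and Col-0 were at the low level with Fei-0, C24 was at 663 to 767, and Bur-0 and Sha lay between. AT2G15560 had 404, 461 and 344 in Sha, against 4.12, 0.905 and 14.0 in C24, with Col-0 and Bur-0 also at 20 or less and Bl-1 also at 300 or more. AT1G50290 had 340, 351 and 243 in Bl-1, against 9.08, 6.61 and 6.95 in Bur-0, and its later difference was 3.37 ± 0.12 (limma, log2, SE). Fei-0, with a mean of 219 at 0 h for AT1G50290, had a later mean of 242, above the 196 in Bl-1.

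AT2G15130, of the basic secretory protein family, was at the high level in Bay-0 alone and at the low level in all of the other 6 accessions, the only member with that pattern. Its signals at 0 h were 607, 921 and 1252 in Bay-0, against 0.441, 0.314 and 0.450 in Col-0. In the later arrays Bay-0 had 800 to 2978 with a median of 1829, against 0.264 to 0.814 with a median of 0.426 in Col-0, a log2 difference of 6.65 ± 0.21 (limma, SE, adjusted p = 1.45e-34), and of 6.65 ± 0.07 without Sha 3 h replicate 1. The 2 groups were far apart in every array.

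AT5G23830 encodes a protein with an MD-2-related lipid-recognition domain. It had 1870, 1578 and 1452 in Bay-0 at 0 h, against 4.28, 5.37 and 7.41 in Fei-0. The later arrays held 1127 to 1610 in Bay-0, against 1.87 to 19.7 in Fei-0, a log2 difference of 5.82 ± 0.10 (limma, SE, adjusted p = 5.10e-47). Bur-0 had 17.7, 4.56 and 10.1 at 0 h, next to Fei-0, and C24 had 121, 123 and 113. AT1G14960, of the polyketide cyclase and Bet v 1-like family, was low in Sha alone. At 0 h it had 1368, 798 and 675 in Bay-0, against 17.1, 16.8 and 24.6 in Sha, and its later difference was 4.35 ± 0.13 (limma, log2, SE, adjusted p = 3.45e-36). AT3G22570, of the lipid-transfer and 2S albumin superfamily, had 299.9, 338 and 357 in Fei-0, against 1.23, 11.9 and 4.07 in Bay-0, the single low accession. Its later signals were 184 to 399 in Fei-0, against 0.375 to 11.8 in Bay-0.

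**Figure D2:**
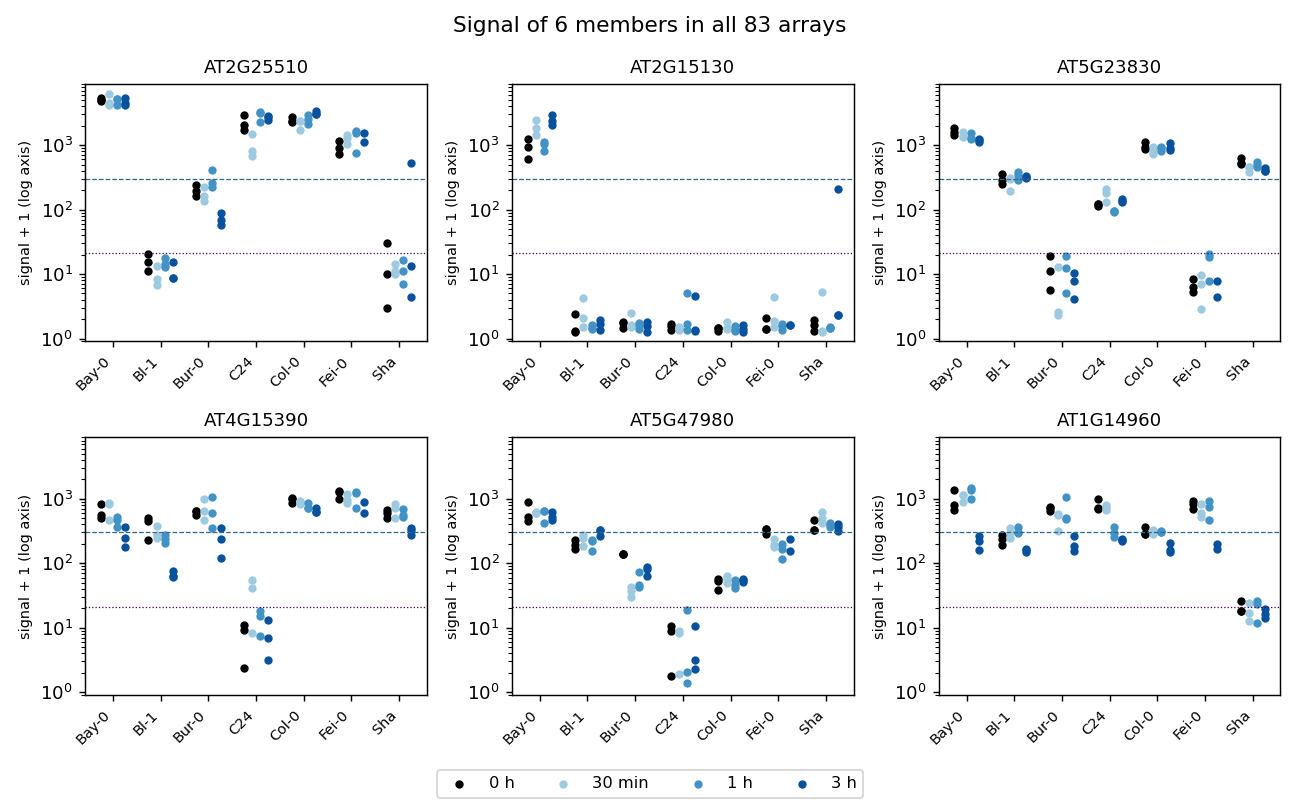
Signal plus 1 on a log axis in all 83 arrays for 6 members, by accession and time, with a dashed line at 300 and a dotted line at 20. AT2G15130 is high in Bay-0 alone, AT4G15390 and AT5G47980 are low in C24 alone, and 1 Sha array at 3 h holds 529 for AT2G25510 and 209 for AT2G15130.

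AT4G15390 and AT5G47980 encode BAHD acyltransferases, enzymes that move an acyl group from coenzyme A to an acceptor, and both were low in C24 alone. At 0 h AT4G15390 had 1003, 1266 and 1339 in Fei-0, against 10.1, 1.33 and 8.27 in C24. The later arrays held 590.1 to 1253 in Fei-0, against 2.12 to 53.9 in C24, a log2 difference of 4.92 ± 0.18 (limma, SE, adjusted p = 5.48e-31). It was at 300 or more in 6 accessions. AT5G47980 lies in the gene cluster that makes and modifies the triterpene thalianol. At 0 h it had 897, 525 and 446 in Bay-0, against 0.788, 9.63 and 7.93 in C24, and the later difference was 4.81 ± 0.12 (limma, log2, SE, adjusted p = 9.24e-40). Levels in between were found in Col-0, with 37.6, 55.6 and 51.5, and in Bur-0, with 138 to 139.

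C24 was also the single low accession for 248727_at and 248729_at, which have no gene in the annotation used here. At 0 h 248727_at had 953, 652 and 486 in Bay-0, against 3.50, 6.27 and 0.349 in C24. For 248729_at the values were 825, 559.7 and 446 in Bay-0, against 4.19, 1.62 and 0.345 in C24. Over the 7 accession means of the later arrays, 248727_at and 248729_at correlated at 0.99, 248729_at with AT5G47980 at 0.86 and AT4G15390 with 248727_at at 0.90, as a description of points that share the low C24 value.

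AT3G29410, a terpene synthase gene, had 706, 652 and 564 in Bl-1 at 0 h, against 12.2, 17.6 and 8.93 in Bur-0. Its later signals were 391 to 786 in Bl-1, against 6.48 to 39.0 in Bur-0, a log2 difference of 4.11 ± 0.10 (limma, SE, adjusted p = 4.16e-39). Bur-0 was the single accession at 20 or less, and Fei-0 was just above, with 25.9, 22.6 and 16.9.

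AT1G52050 and AT1G52100 encode jacalin-like lectins, of a family known for binding mannose. Among the 18 members with 1 listed gene, they were the only ones within 5 protein-coding genes of each other, and the other 19 members were not placed. They did not share their pattern. At 0 h AT1G52050 had 744, 867 and 966 in Sha, against 12.9, 14.5 and 16.6 in Fei-0, while AT1G52100 had 329.6, 272 and 341 in C24, against 1.82, 3.48 and 0.982 in Sha. Sha was thus the highest line for one lectin gene and the lowest for the other. In limma AT1G52050 was higher in the later Sha arrays by 4.42 ± 0.17 and AT1G52100 in the later C24 arrays by 3.78 ± 0.11 (log2, SE, adjusted p = 1.46e-30 and 3.60e-36). Between them in the cluster, AT1G52060 had 475 to 883 in the later Sha arrays, against 154 to 505 in the Bl-1 ones, and its lowest later signal in any accession was 54.3. Both C24 and Sha were at 300 or more for AT1G52050, and Bur-0 was low for both genes.

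AT5G63680, of the pyruvate kinase family, had the low value in 1 line and like values in the rest: 343, 312 and 308 in Bay-0, against 4.85, 6.79 and 13.8 in Bur-0, with the other 5 accessions at 182 to 344. The later difference was 3.71 ± 0.08 (limma, log2, SE, adjusted p = 1.18e-42). AT5G04120, of the phosphoglycerate mutase family, had 626, 374 and 232 in Bay-0, against 9.35, 13.6 and 18.5 in Bl-1, and the other 5 accessions lay at 18.3 to 89.9. For AT5G63680 Bur-0 was the exception, whereas for AT5G04120 Bay-0 was.

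AT5G62340 belongs to the inhibitors of invertases and pectin methylesterases, which act on cell wall pectin and sucrose cleavage. At 0 h it had 507, 502 and 488 in Bur-0, against 14.8, 15.1 and 29.0 in Fei-0, and the later difference was 3.92 ± 0.11 (limma, log2, SE, adjusted p = 5.95e-37). Fei-0 was the single low line, while the other 5 lay at 216 to 389.9. AT5G45500, of the leucine-rich repeat RNI-like superfamily, had 314, 341 and 322 in Col-0, against 0.498, 0.855 and 0.609 in Fei-0. Bay-0 and C24 were also low, with at most 2.60 at 0 h. Its later signals were 243 to 310.1 in Col-0, against 0.312 to 5.10 in Fei-0. Sha had a mean of 272 at 0 h and 291 to 397 in its later arrays. The later mean of AT5G45500 was 356 in Sha, above the 276 in Col-0. AT3G48640 had 559, 589.96 and 638 in Bay-0, against 16.0, 8.20 and 7.49 in Col-0, and the later difference was 4.73 ± 0.10 (limma, log2, SE, adjusted p = 1.31e-42).

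Probe sets without a single listed gene held some of the widest differences. At 0 h 255437_at had 2760, 2908 and 2567 in Sha, against 8.42, 7.38 and 5.92 in Bay-0, and 263174_at had 3556, 3593 and 3591 in C24, against 11.5, 27.9 and 12.0 in Bl-1. Their later log2 differences were 6.52 ± 0.11 and 6.18 ± 0.08 (limma, SE). Both had Bur-0, C24, Fei-0 and Sha at 300 or more at 0 h and Bay-0, Bl-1 and Col-0 below 50 in every array, a split of the accessions that the 2 probe sets shared. Their later accession means correlated at 0.92. For 255257_at Bay-0 had 2241, 2457 and 2248, against 9.10, 3.70 and 16.1 in Bl-1, and for 262374_s_at C24 had 691, 439 and 880.5, against 0.370, 0.301 and 0.802 in Fei-0. Only Fei-0 was low for 262374_s_at, and in the later arrays Bay-0 had a mean of 805, above the 525 in C24. The pair 253767_at and 249082_at correlated at 0.99 over the 7 later accession means, as a description of points from the same arrays, and both were highest in Fei-0. In C24 their later arrays ran from 2.22 to 577 for 253767_at and from 0.346 to 771 for 249082_at. There 253767_at had 2.22, 4.54 and 69.5 at 30 min and 315, 577 and 244 at 1 h, so the 2 times did not overlap. The later signals of 253767_at were 307 to 1265 in Fei-0, against 1.53 to 11.7 in Bur-0 and 2.09 to 16.3 in Sha.

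**Figure D3:**
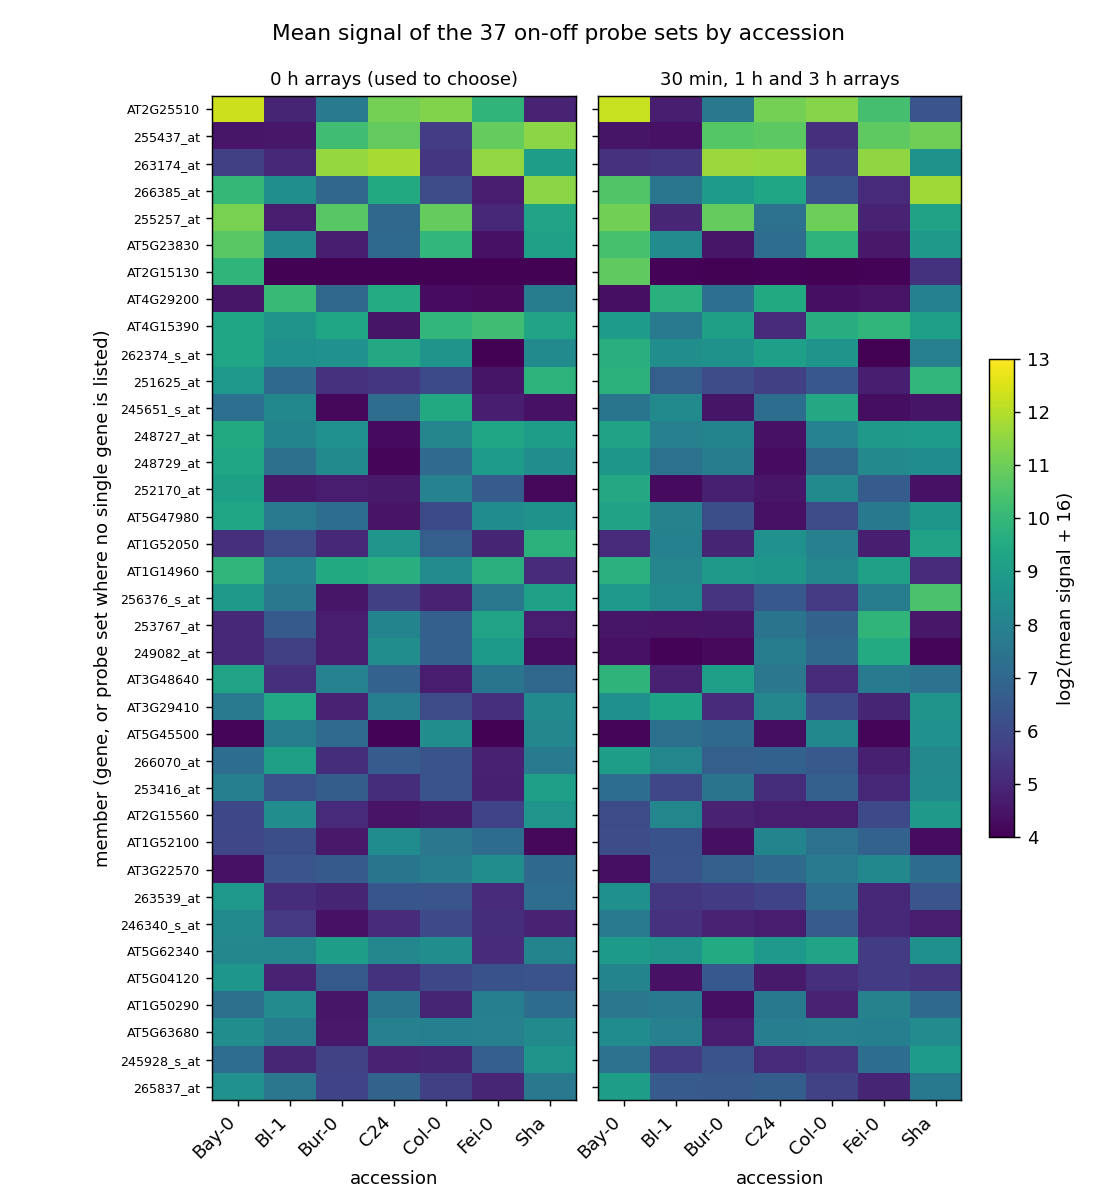
Rows are the 37 members, ordered by their log2 difference at 0 h, and columns the 7 accessions. Colour is log2 of the mean signal plus 16, at 0 h in the left panel and over the later arrays in the right panel. The 2 panels show the same bright and dark cells for nearly every member, from AT2G25510, bright in Bay-0 and dark in Sha, to 265837_at.

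The accessions were not alike in how many members they held at each level. Bay-0 had 20 members at 300 or more and 6 at 20 or less, Sha 17 and 9, Fei-0 11 and 15, C24 10 and 11, Bur-0 9 and 16, Col-0 9 and 7, and Bl-1 8 and 8. Over all probe sets the share at 300 or more was 9.79% to 10.1% in each accession and the share at 20 or less 36.3% to 37.7%. Bay-0 and Sha, with the most members at 300 or more, were also the accessions with the lowest shoot marker sums, given above, whose part in these counts was not tested. Bay-0 was the single high accession for 8 members: AT2G15130, AT3G48640, AT5G04120, AT5G63680, 252170_at, 263539_at, 246340_s_at and 265837_at. For AT5G63680 this rested on the limit of 300, as Sha had a mean of 296 at 0 h, against 321 in Bay-0. Fei-0 was the single low accession for 5 members and C24 for 4, while Bur-0 was the single high accession for 0. The high level was held by 1 accession in 17 members, 2 in 8, 3 in 2, 4 in 7, 5 in 1 and 6 in 2.

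**Figure D4:**
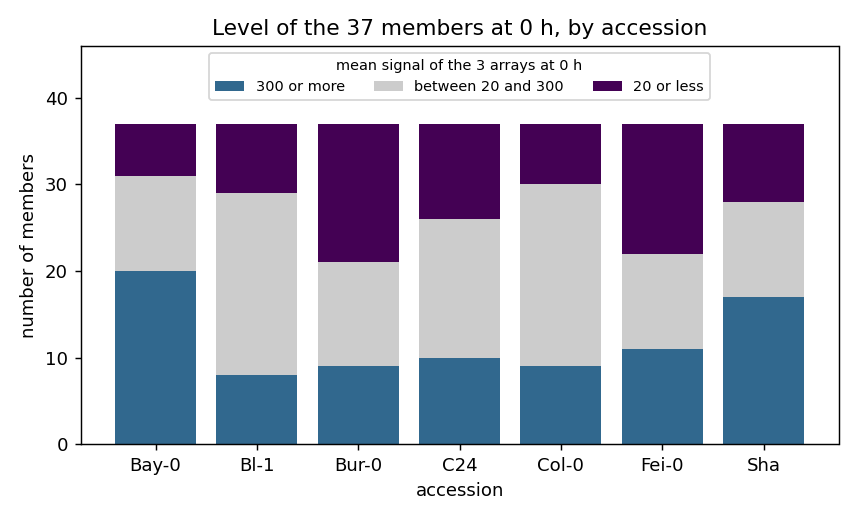
Bars count the 37 members by their mean signal of the 3 arrays at 0 h in each accession: 300 or more, between 20 and 300, and 20 or less. Bay-0 has the most members at 300 or more, 20, and Bur-0 the most at 20 or less, 16.

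Differences among all 7 accessions were then tested together. In limma's F test on the later arrays all 37 members were called, against 18.8% of all probe sets tested. Accession took a median of 94.2% of the sum of squares of the members in the later arrays, against 48.3% over all probe sets tested. Time took 1.03%, against 5.84%, accession by time 2.25%, against 11.4%, and replicates 2.44%, against 26.4%. The members were chosen for a wide difference between accessions, so a large share of accession and small other shares were largely built in. They do not show that members changed less over time or varied less between replicates. The share of accession was highest for AT4G29200, at 99.1%, and lowest for 253416_at, at 49.4%. When the 7 accessions were put in order by their later levels, 21 members had 1 place where every array of an accession lay above every array of the next, 7 had 2 such places, 5 had 3 and 4 had none. Other neighbours in the order had arrays that overlapped. Thus 245651_s_at separated Col-0, Bl-1, the pair Bay-0 and C24, and the low lines Sha, Bur-0 and Fei-0 from one another, whereas AT5G04120 had no gap.

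The next comparison asked whether members kept their level between 30 min and 3 h within an accession. By limma, comparing 3 h with 30 min, 10 members were higher and 9 were lower in at least 1 accession, against 2.54% and 3.70% of all probe sets tested, and 1 of them, 263539_at, was called both ways in different accessions. The other 19 members were called in none. Falls were called in Bay-0 for 7 members (18.9%, against 1.53% of all probe sets tested), in Bur-0 for 6 (16.2%, against 1.02%) and in Sha for 5 (13.5%, against 1.31%). In Bl-1, C24 and Fei-0 they were called for 2 members each (5.41%, against 1.08%, 1.21% and 0.942%), and in Col-0 for 1 (2.70%, against 0.766%). Rises were called in C24 for 8 members (21.6%, against 1.32%), in Bl-1 for 5 (13.5%, against 0.502%) and in Sha for 2 (5.41%, against 0.678%). In limma 0 members were called higher in Bay-0, Bur-0, Col-0 and Fei-0, where 0.948%, 0.672%, 0.553% and 0.377% of all probe sets tested were, while 1, 4, 3 and 4 members were higher there at an unadjusted p under 0.05 and at any size. Both rises in Sha, of AT2G25510 and AT2G15130, rested on Sha 3 h replicate 1: without it the steps were -0.20 and -0.02, in place of 1.32 and 1.22, and neither was called.

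Phosphoglycerate mutase family member AT5G04120 lost most of its signal in Bay-0 by 3 h. There it had 409, 409 and 441 at 30 min, at 1 h 243, 204 and 424, and at 3 h 42.8, 37.5 and 34.8, and it fell by 3.00 ± 0.27 on the log2 scale (limma, 3 h minus 30 min, SE, adjusted p = 2.53e-13). It also fell in Bur-0 by 2.44 ± 0.27, in Fei-0 by 1.60 ± 0.30 and in Sha by 1.29 ± 0.27. With 64 in place of 16 added, the steps of AT5G04120 in Fei-0 (-0.66) and Sha (-0.54) were not called. In Bl-1 it was at 0.976 to 11.3 throughout the later arrays. AT1G14960 fell in 4 accessions, by 2.23 ± 0.22 in Bay-0, 1.72 ± 0.24 in Fei-0, 1.59 ± 0.22 in C24 and 1.19 ± 0.22 in Bur-0 (limma, log2, SE). In Bay-0 the signals of AT1G14960 were 875, 1138 and 1147 at 30 min, at 1 h 1345, 986 and 1457, and at 3 h 221, 159 and 266. Without replicate 1 its step in Bur-0 was -0.89 and not called. The low Sha arrays stayed at 11.0 to 25.3.

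The acyltransferase gene AT4G15390 fell by 1.92 ± 0.30 in Bl-1, 1.56 ± 0.30 in Bur-0, 1.41 ± 0.30 in Bay-0, 1.06 ± 0.30 in Sha and 1.01 ± 0.30 in C24 (limma, log2, SE). Bl-1 had 373, 242 and 272 at 30 min, at 1 h 276, 207 and 235, and at 3 h 59.4, 62.4 and 74.1. Leaving out single arrays ended the calls of AT4G15390 in C24 (-0.69 without C24 30 min replicate 3, -0.85 without replicate 1 of that time, -0.86 and -0.997 without C24 3 h replicates 3 and 1) and in Sha (-0.91 without Sha 30 min replicate 1 and -0.96 without Sha 3 h replicate 2). With 64 added the steps in C24 (-0.44) and Sha (-0.96) were not called either. In Fei-0 and Col-0 the step was not called. The test of accession by time did not call AT4G15390 (adjusted p = 0.0650), so its course over the later times was not shown to differ between accessions.

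The 2 members whose later arrays overlapped were both high in Bay-0 and low in Bur-0. At 0 h 246340_s_at had 431, 304 and 175 in Bay-0, against 8.26, 1.44 and 8.18 in Bur-0. Bay-0 then had 361, 437 and 363 at 30 min, at 1 h 157, 132 and 183, and at 3 h 17.2, 14.8 and 13.6, so that at 3 h it lay among the other accessions, and it fell by 3.69 ± 0.22 on the log2 scale (limma, SE, adjusted p = 2.37e-19). In the arrays of 3 h alone the difference between Bay-0 and Bur-0 was 0.55 and not called. For 263539_at Bay-0 had 702, 747 and 685 at 30 min, at 1 h 339, 218 and 255, and at 3 h 42.5, 83.2 and 97.6, and it fell by 3.06 ± 0.31 (limma, log2, SE). Over the same step 263539_at rose in C24 by 1.14 ± 0.31, at 13.4, 23.5 and 9.81 at 30 min, at 1 h 30.0, 10.2 and 119, and at 3 h 46.2, 60.3 and 51.4. With 64 added that rise was 0.55 and not called. Also 253416_at fell in Bur-0 by 3.18 ± 0.26, in Bay-0 by 3.16 ± 0.26, in Sha by 2.32 ± 0.26 and in Col-0 by 2.24 ± 0.26. At 3 h 253416_at had 80.4, 87.7 and 71.5 in Sha, its single high accession, where it had 589.7, 499.7 and 329 at 30 min.

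**Figure D5:**
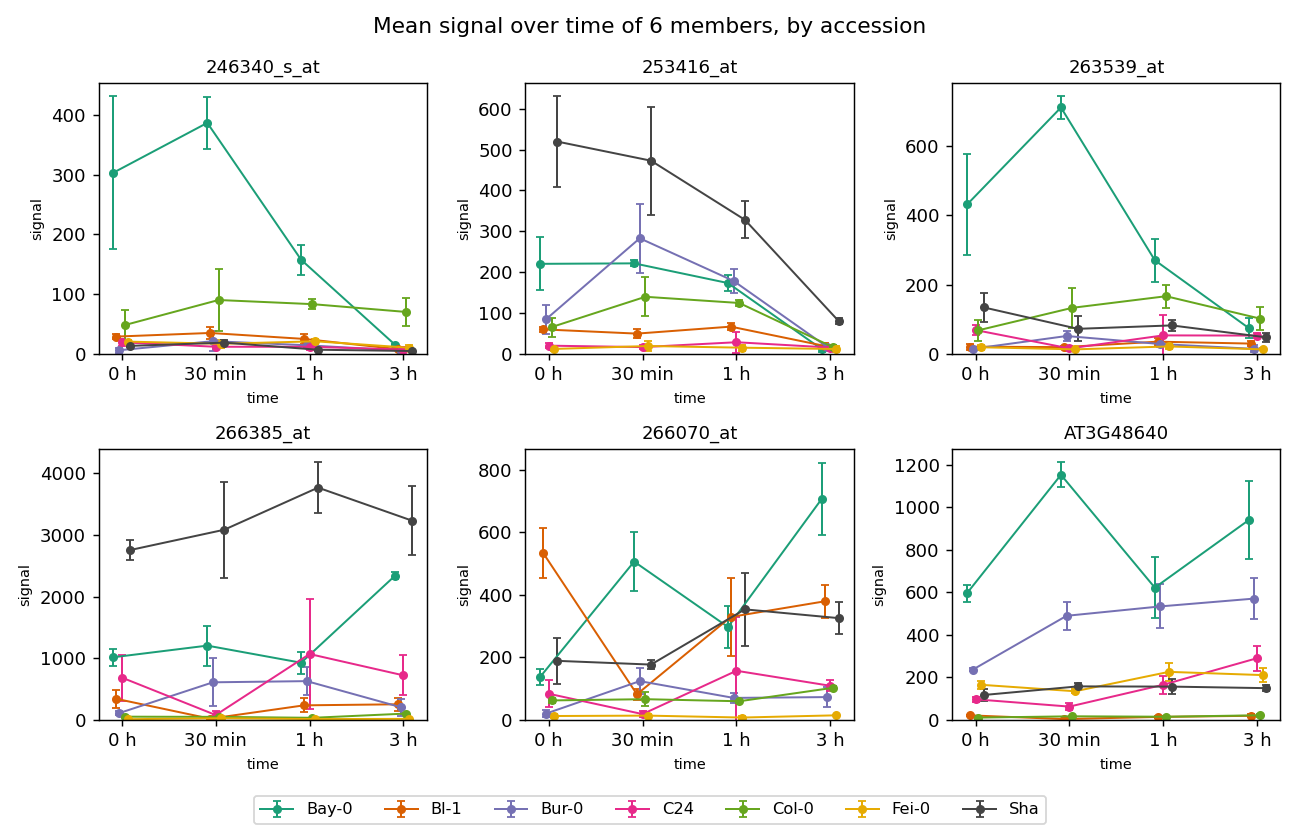
Mean signal (linear axis) by time for 6 members in the 7 accessions, with bars for the SD of the 3 arrays (2 for Fei-0 at 3 h). 246340_s_at and 263539_at go down in Bay-0 and 253416_at in Sha and other accessions by 3 h, while 266385_at and 266070_at have their lowest point at 30 min in Bl-1 and C24 and AT3G48640 goes up in C24.

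Rises in both Bl-1 and C24 between 30 min and 3 h were called for 4 members, 266385_at, 266070_at, 251625_at and 265837_at. For 266385_at the step was 2.88 ± 0.57 in Bl-1 and 3.14 ± 0.57 in C24 (limma, log2, SE, adjusted p = 0.000128 and 2.36e-05). Bl-1 had 17.3, 22.4 and 15.9 at 30 min, at 1 h 163, 365 and 179, and at 3 h 238, 152 and 367, after 268, 246 and 511 at 0 h. The 30 min arrays of Bl-1 were thus lower than those before and after them. In C24 266385_at had 458, 482 and 1117 at 0 h, 63.0, 153 and 17.9 at 30 min, at 1 h 1607, 45.3 and 1552, and at 3 h 346, 937 and 882. One C24 array at 1 h, replicate 2, stayed with the 30 min arrays. Fei-0, the low accession for 266385_at, had 7.39 to 44.6 in its later arrays. With 64 added both calls of 251625_at (0.99995 in Bl-1 and 0.48 in C24) and both of 265837_at (0.80 in Bl-1 and 0.82 in C24) were lost. The call of 251625_at in C24 was also lost without C24 30 min replicate 3 (0.92) or C24 3 h replicate 2 (0.98), and that of 265837_at in Bl-1 without replicate 2 (0.92).

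For 266070_at Bl-1 had 460.5, 523 and 618 at 0 h, 84.5, 62.8 and 98.0 at 30 min, at 1 h 196, 352 and 439, and at 3 h 359, 339 and 439, a step of 2.02 ± 0.32 (limma, log2, SE, adjusted p = 3.76e-06). Bay-0, between the levels at 0 h with 109, 149 and 155, had 574 to 780.1 at 3 h and so lay above Bl-1, the line for which 266070_at was chosen as high. AT3G48640 rose in C24 by 1.97 ± 0.17 (limma, log2, SE, adjusted p = 3.46e-13), with 63.6, 77.5 and 45.7 at 30 min, at 1 h 213, 130 and 152, and at 3 h 340.02, 305 and 225. In its low accession, Col-0, AT3G48640 had 12.5 to 28.4 in the later arrays. Bl-1, with a mean of 21.0 at 0 h and so just over the limit, had 2.79 to 25.7 there. Bur-0, between the levels at 0 h with a mean of 236, had 416 to 670 in the later arrays.

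Whether the course over 30 min, 1 h and 3 h differed between accessions was tested as an interaction of accession and time. The test covers all 3 times, and a call also needs steps from 30 min to 3 h that range over at least 1 on the log2 scale, so a call does not show that these steps themselves differ. In limma 21 members were called, against 7.06% of all probe sets tested. The smallest adjusted p belonged to 246340_s_at (6.77e-11), 253416_at (7.77e-10), AT3G48640 (3.91e-09), AT5G04120 (6.11e-09) and AT1G14960 (5.01e-08). The range over accessions of their steps was 3.45, 3.14, 2.27, 3.47 and 2.18 on the log2 scale. The widest range among the members was that of 266385_at, 4.63, with rises in Bl-1 and C24; without replicate 3 it was 4.07 and not called. In 16 members the interaction was not called, among them AT4G29200, AT5G45500, AT5G63680, AT2G15130 and 245651_s_at. For AT2G15130 the range was 1.29 (adjusted p = 0.154), and without Sha 3 h replicate 1 it was 0.46 (adjusted p = 2.72e-06), too narrow for a call. For AT2G25510, which was called, the range was 2.62 (adjusted p = 0.0172, and 1.17e-07 without that array). Of the 21 calls, 11 were lost under at least 1 alternative, as given in the closing section. Among these, 249082_at had no step called in any accession.

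Neighbouring genes were looked at to see whether a member's pattern reached beyond it. Within 5 protein-coding genes on either side of the 18 members with 1 gene there were 53 tested probe sets of other genes, and 12 of them were called higher for their own pair of accessions (22.6%, against 14.0% of all probe sets tested). In 2 of the 12 the pair was the member's own, so the count of 12 does not show that a member's pattern was shared. The genes described next, AT5G45510 aside, had the largest log2 differences in the direction of the member's pair. In that direction every other tested gene differed by less than 1. AT1G14910, near AT1G14960, went the other way, with -1.10 for Bay-0 minus Sha. AT5G62330, next to the inhibitor gene AT5G62340, had 10.9 to 93.4 in the later Bur-0 arrays, against 0.475 to 2.67 in Fei-0, a log2 difference of 1.34. MOB1-like, near AT5G45500, had 349 to 476 in Col-0, against 45.5 to 75.9 in Fei-0, a difference of 2.57. AT5G45480, on the same stretch as AT5G45500, had 111 to 173 in the later Col-0 arrays, against 34.9 to 71.5 in Fei-0. Its log2 difference between Col-0 and Fei-0 was 1.26. AT5G45510, also on that stretch, had 449 to 588 in Col-0 and 235 to 544 in Fei-0, which overlapped, with a difference of 0.55. AT5G47950, another acyltransferase gene of the thalianol cluster near AT5G47980, had 176 to 290 in Bay-0 and 55.6 to 99.6 in C24, a difference of 1.46. AT5G47980 had 0.399 to 17.7 in C24. For AT5G47950 C24 did not stand apart as low: Bl-1 had 39.7 to 80.2, Bur-0 46.1 to 93.9 and Col-0 42.8 to 86.1.

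The limits of the choice are arbitrary, and members lay close to them. The lowest high values were 303 for 246340_s_at in Bay-0, 311 for AT1G50290 in Bl-1 and 314 for AT1G52100 in C24. Just outside were AT1G62510 with 285 in Fei-0, 261459_at with 285 in Bay-0 and AT1G13470 with 282 in Bay-0. The highest low values were 19.7 for AT5G62340 in Fei-0, 19.5 for AT1G14960 in Sha and 17.1 for 263174_at in Bl-1. AT4G27652 with 20.2 in C24, AT5G38020 with 20.6 in C24 and 262427_s_at with 20.7 in Bl-1 were just above 20. Applied to the arrays of each later time, the same levels were met by 59 probe sets at 30 min, 43 at 1 h and 48 at 3 h, of which 31, 27 and 25 were members.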

How the data were processed

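Transcripts of whole seedlings of 7 accessions were measured on 83 ATH1 arrays. The values are the deposited intensity (signal) of each probe set on a linear scale, made by the authors with MAS5 and GCOS, per the submitters' processing notes, and scaled to a trimmed mean of 100 per array. The genome build and annotation behind the probe sets were not given in the sources used here, and no coordinates are printed. Groups came from the array labels, and 0 per-sample columns were left unused. The arrays carry no read depth; their number limits the precision.

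A value of 16 was added before log2. The lowest 30% of probe sets by mean signal (6824) were left out, and 15922 were tested with limma 3.58.1 in R 4.3.3 (lmFit, eBayes with trend) on the 62 later arrays with 1 mean per accession and time, with Benjamini-Hochberg adjustment. A call needs an adjusted p under 0.05 and a 2-fold difference (for F tests a range of 1 on the log2 scale). The test code was tested on simulated data.

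Genes were named from the platform annotation: 13513 probe sets have 1 gene, 503 several and 8730 none, and of those with 1 gene 13436 were matched to the RefSeq table by gene ID and 48 by locus tag. Gene families listed for description could not be applied, since that table holds no descriptions. Named are the 15 members with 1 gene and the largest 0 h ratio, up to 2 per accession with it as the single high or low line, members that overlap, the largest time steps and smallest interaction p-values, neighbours, and those nearest the limits. Other members are named as patterns, chosen after their values were seen. Members and lists were chosen with earlier results of these data known. Alternatives changed the added value, the filter, the scaling, the arrays used, the replicate block and the times.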

Additional observations from a re-analysis of the deposited data

Results flagged for a closer look

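For 21 members the course over 30 min, 1 h and 3 h differed between accessions in the interaction test of limma on the later arrays. Each was chosen with a low accession, where log2 steps are kept small, so a change in the expressing accessions alone can give a call. The values are the range over the 7 accessions of the log2 step from 30 min to 3 h, and the test was not of this step alone. The widest ranges were those of 266385_at (4.63, with rises in Bl-1 and C24), 263539_at (4.201, a fall in Bay-0 and a rise in C24), AT5G04120 (3.47), 246340_s_at (3.45) and 253416_at (3.14). They were 2.70 for 266070_at, 2.62 for AT2G25510, 2.27 for AT3G48640, 2.18 for AT1G14960 and 1.84 for 251625_at. Smaller ranges were 1.69 for 253767_at, 1.66 for 248729_at, 1.64 for 256376_s_at, 1.47 for 262374_s_at, 1.44 for AT3G29410, 1.39 for 265837_at and 1.32 for AT5G47980. The smallest were 1.27 for 263174_at, 1.26 for 249082_at, 1.12 for AT1G52100 and 1.08 for 252170_at. AT2G25510 kept its call and its range of 2.62 without Sha 3 h replicate 1, while its call was lost with 1 added (2.80) and without replicate 3 (3.03). The calls of 10 members were lost under none of the alternatives run, and those of 11 under at least 1. With 64 added the lost calls were those of 249082_at (0.91), 252170_at (0.81), 253767_at (0.93), 263174_at (0.63), 265837_at (0.81), AT1G52100 (0.79) and AT5G47980 (0.93). With 1 added they were, beside AT2G25510, those of 248729_at (1.57), 252170_at (2.19), AT1G52100 (1.41) and AT5G47980 (1.58). Leaving out a replicate number ended the calls of 266385_at (4.07 without replicate 3), 248729_at (1.78 without replicate 3), 253767_at (0.78 without replicate 2), 262374_s_at (1.40 without replicate 1) and 265837_at (1.77 without replicate 1). It also ended those of 249082_at (1.44 and 0.87 without replicates 1 and 2), 252170_at (1.01 and 1.097 without replicates 1 and 2) and AT1G52100 (1.41 and 1.08 without replicates 1 and 3). The call of AT5G47980 was lost without each replicate number (1.11 to 1.48), with no filter (1.32) and with quantile normalization (1.32).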

How the results depend on the processing

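All 37 members were called higher in their high accession under every alternative but the arrays of 3 h alone, where 36 were, without 246340_s_at (0.55). The counts of members were 13 to 20 for a step from 30 min to 3 h, against 18, and 15 to 22 for the interaction, against 21. Adding 1 and adding 64 to the signals changed the counts over all probe sets: 3503 and 966 for the high over the low accession, against 2226; 4899 and 1277 for the F test on accessions, against 2998; 2009 and 366 for the step, against 982. The interaction gave 376 with 64 added, against 1124. With 64 added 16 of the 40 called steps were lost and with 1 added 3. The Sha steps of AT2G15130 and AT2G25510 ran from -0.0705 to 1.94 and from -0.130 to 2.20 when a replicate number was left out, reached at most 1.83 and 2.21 when 1 array was, and turned to -0.0175 and -0.198 without Sha 3 h replicate 1, an alternative chosen after seeing the data. The interaction calls of 252170_at, 262374_s_at, AT1G52100 and AT5G47980 were lost when 1 array was left out, with lowest ranges of 0.96, 1.32, 0.91 and 1.17. The choice at 0 h gave 35 to 39 probe sets under other settings, 32 to 37 of them members. Deviations of same-numbered replicates correlated at -0.35 to 0.26 (61 pairs, median 0.0037, 10 over 0.1). Those of different numbers correlated at -0.35 to 0.37 (122 pairs, median -0.0071, 13 over 0.1). The arrays were not treated as paired, though this check cannot exclude a pairing by number. With the replicate block the counts of members were 37, 37, 18 and 21, and over all probe sets 2231, 3003, 981 and 1122, and no call on a member changed. Array replicates limit what small steps can show, and signals near 0 carry no order.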
